A study of Homo sapiens with 4 samples.

Results

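DNA methylation was followed at 10 genes for developmental transcription factors in human prostate cancer cells with and without an atypical protein kinase C. The genes were PAX6, OTX2, LHX2 and EN1, known from eye and brain, PAX2, SIX2 and WT1, known from kidney and the urogenital tract, and GATA4, NKX2-5 and TBX5, known from heart. Members were the deposited peaks that shared at least 1 bp with a span of the hg19 genome holding each gene and about 5 kb on either side. The 10 spans came to 431 kb. They held 73 of the 261657 control peaks and 78 of the 296521 knockout peaks. The summit of 1 control peak and 2 knockout peaks lay just outside the span that the peak touched.

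The cells were C42B (C4-2B), a prostate cancer line derived from LNCaP. One genotype carried a control guide RNA (sgC, labelled WT), and the other was a knockout of PKCλ/ι made with a guide against it (sgPKCl/i). PKCλ/ι is the product of PRKCI. All cells were untreated and harvested 48 h after plating at about 70% confluency. Sonicated DNA was immunoprecipitated with an antibody against 5-methylcytosine and sequenced (MeDIP-seq). Each genotype had 1 immunoprecipitated library and 1 input library, so no difference below has a replicate check and no test between genotypes was possible. The sources used here do not say whether the cells were a clone or a pool. The lists hold no transcript level, so the cell type, the loss of PRKCI and the activity of the 10 genes were not checked in them.

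Polycomb repressive complexes keep developmental regulators silent outside their own lineage by marking their chromatin, mainly at CpG islands, the CpG-rich stretches around many gene starts. In normal cells such islands are mostly free of DNA methylation, and broad stretches around these genes can lack it. In many cancers the same islands gain DNA methylation. Histone marks and Polycomb binding were not measured in this series, so the name Polycomb-type rests on background knowledge of the genes.

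MeDIP recovers fragments that carry many methylated CpGs more readily than those that carry few, so the CpG content of a sequence bears on its signal. Promoter sequences from RefSeq (GRCh38.p14) were read for 7 of the 10 genes, which had 21 entries for alternative starts. In the 250 bases before the start these entries held 3 to 28 CpG (the letters CG, which read the same on both strands), with a median of 14. Over all 35114 promoters of the table the median was 11, and 93.9% held at least 1. LHX2 and SIX2 had a single entry each and were rich in CpG, and they are shown because their spans were among the most densely covered by peaks. Capitals mark each CpG, and the last base printed is the one before the start. These positions are in GRCh38.p14 and cannot be set against the hg19 positions of the peaks.
LHX2, chr9:124011518-124011767, + strand: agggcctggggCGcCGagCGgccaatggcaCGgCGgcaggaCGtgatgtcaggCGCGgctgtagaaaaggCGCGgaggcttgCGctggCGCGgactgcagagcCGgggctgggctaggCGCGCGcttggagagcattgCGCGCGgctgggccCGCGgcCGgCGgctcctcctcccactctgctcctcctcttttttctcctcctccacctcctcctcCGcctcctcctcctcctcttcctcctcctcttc
SIX2, chr2:45009453-45009702, - strand: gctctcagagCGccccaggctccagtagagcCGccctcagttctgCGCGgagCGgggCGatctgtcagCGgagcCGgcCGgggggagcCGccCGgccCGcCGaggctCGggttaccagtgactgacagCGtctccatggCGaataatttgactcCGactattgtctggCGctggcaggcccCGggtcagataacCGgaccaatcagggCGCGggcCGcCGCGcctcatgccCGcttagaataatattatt
The LHX2 stretch held 25 CpG, more than 78.4% of all promoters in the table. The SIX2 stretch held 26, more than 80.4%. The count did not follow the peak cover given below in every gene: the 2 entries of PAX2, the least covered gene, held 10 and 15, those of the more covered OTX2 7 and 4, and the entry with the most, 28, belonged to PAX6.

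Most of the 10 gene spans were covered by 5-methylcytosine peaks over a larger share of their length than the genome at large, in both genotypes. Cover by peaks depends on the density of CpG as well as on methylation, and the hg19 sequence of the spans was not used here. Peaks covered 12.3% of the spans in control cells and 13.7% in knockout cells. Over chromosomes 1 to 22 and X, from the first to the last peak, the control list covered 5.11% and the knockout list 5.996%. The 100 kb on either side of the spans were covered at 4.12% in control cells and 5.19% in knockout cells, on average. In the control list 9 of 10 spans were covered more than their own flanks, with GATA4 the exception at 9.84% against 12.2%. In the knockout list it was 8 of 10, with GATA4 (10.6% against 14.6%) and PAX2 (1.44% against 2.65%) the exceptions.

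**Figure D1:**
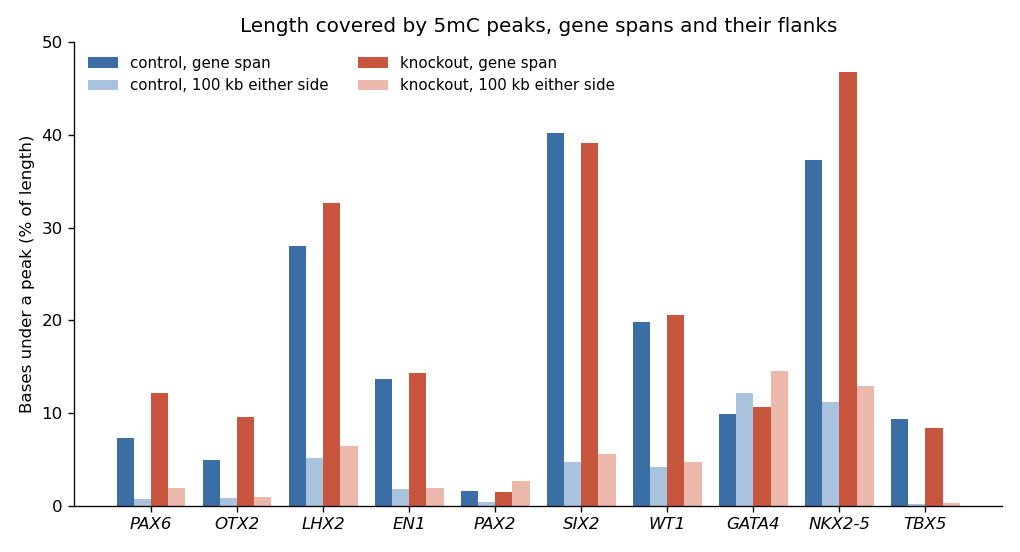
Bases under a 5-methylcytosine peak as a percentage of length, for the span of each gene (dark bars) and the 100 kb on either side of it together (light bars), in the control library (blue) and the knockout library (red). SIX2 and NKX2-5 are the most covered, PAX2 the least, and GATA4 is the only gene whose flanks are more covered than its span in both lists; each bar is 1 library, so there are no error bars.

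Cover differed between the genes far more than between the genotypes. SIX2 was covered at 40.2% in control cells and 39.1% in knockout cells, and NKX2-5 at 37.4% and 46.8%. LHX2 followed with 28.0% in control cells and 32.6% in knockout cells, and WT1 with 19.8% and 20.6%. These 4 were more covered than 93.4% to 98.3% of all stretches of their own length by the control list, and than 92.1% to 98.5% of them by the knockout list. PAX2 stood at the other end with 1.54% in control cells and 1.44% in knockout cells, close to the median stretch of its length (1.59% and 2.10%). The other 5 genes ran from 4.95% (OTX2) to 13.7% (EN1) in the control and from 8.33% (TBX5) to 14.3% (EN1) in the knockout. Of the 10 genes, 7 were covered more in the knockout list. The knockout immunoprecipitate was taken as the deeper one, with an estimated genome-wide mean pileup of 4.42 overlapping fragments against 2.92. These estimates are the lowest local backgrounds of the lists. More depth can also lengthen and add peaks, and its part in the cover was not tested.

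Long peaks were common at these genes. A length of 1000 bp or more was reached by 14 control peaks in the spans (19.2%) and 15 knockout peaks (19.2%). In the whole lists the shares were 8.78% in control cells and 10.1% in knockout cells. Levels are given below as pileup, the number of fragments over the summit of a peak, or as pileup divided by the genome-wide mean of its library. On that second scale the median peak of the spans stood at 9.24 in control cells and 9.83 in knockout cells, beside 8.55 and 8.14 over the whole lists. The local background was also above the lists' level, with a median of 1.40 times the library mean in the control spans and 1.70 in the knockout spans, against 1.14 and 1.24 over the lists. Its part in the levels was not tested.

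Peaks were gathered at the upstream end of most of these genes. Each span was read in the direction of transcription, and its 10 kb at the upstream end, with the gene start at about 5 kb, were set against the rest. This division was chosen after the positions of the peaks had been seen. The upstream ends were covered at 23.7% in control cells and 26.8% in knockout cells, and the rest of the spans at 8.83% and 9.75%. Each gene gave 10 kb to the first figures, while the rest was pooled by length, so long spans weighed more in it. The rest of PAX2, the longest span at 95 kb, was covered at 1.72% in control cells and 1.61% in knockout cells. The size of the contrast therefore depends in part on which genes are long. The upstream end was the more covered part in 7 of 10 genes in either list. The 3 exceptions were EN1 and SIX2, where the rest of the span was more covered, and PAX2, whose upstream 10 kb held no peak in either list. The spans of SIX2 (15 kb) and NKX2-5 (14 kb) are short. In them the upstream 10 kb took in about the whole gene and the rest was downstream flank, so the division does not part gene start from gene body.

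**Figure D2:**
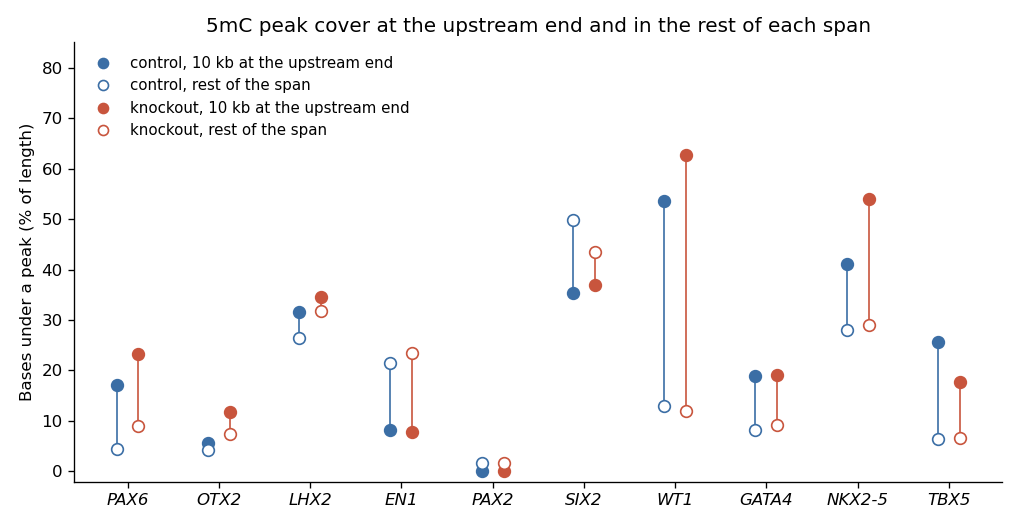
Bases under a peak as a percentage of length in the 10 kb at the upstream end of each span (filled circles) and in the rest of the span (open circles), for the control (blue) and knockout (red) library. WT1 shows the widest gap between upstream end and rest (53.5% against 12.9% in the control), while EN1 and SIX2 run the other way and PAX2 lies at 0 upstream.

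Across the 10 genes most methylated regions were shared by both genotypes. Of the control peaks 64 overlapped a knockout peak and 9 of 73 did not, 12.3% (5.80 to 22.1), beside 12.1% of the whole control list. Of the knockout peaks 65 were shared and 13 of 78 were knockout-only, 16.7% (9.18 to 26.8), beside 23.9% of the whole knockout list. In each list the share of the whole list lay inside the interval of the spans. Which genotype had more list-only peaks depended on the selection of peaks. The knockout list was also cut to its most significant peaks, as many as the control list has. Then 15 of 73 control and 9 of 67 knockout peaks in the spans were list-only. With a fold enrichment of at least 5 in both lists it was 12 of 43 and 10 of 40. With −log10 q of at least 10 required in both lists, partners included, it was 4 of 45 and 15 of 58. Shares of the whole lists under these selections were not computed, so these counts are no result about the 10 genes. Among strong peaks, defined by an authors' −log10 q of at least 10, 0 of 45 control peaks (0 to 7.87%) and 7 of 58 knockout peaks, 12.1% (4.99 to 23.3), were list-only, beside 3.24% and 14.9% of the lists. The list-only peaks of the spans had a median pileup of 19 in the control (12 to 25) and 27 in the knockout (18 to 72). Pileup and background of the 13 knockout-only peaks were divided by 1.51, the ratio of the library means. All 13 still passed the lowest −log10 p of the control list, 3.24, with values from 3.52 (TBX5) to 29.6 (PAX6). These peaks were picked because the knockout list called them, and the lowest control value is a lenient mark. The check is therefore not independent, and the part of depth in these peaks was not tested.

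The paired regions of these genes were slightly higher in the knockout by pileup and not by enrichment over background. A pair was a control and a knockout peak that overlapped each other and no other peak. Over 56 pairs the median log2 ratio of pileup, scaled by the library means, was 0.17 (0.13 to 0.21, from the scatter of pairs), with quartiles of -0.05 and 0.31. Over all 206556 pairs of the lists it was 0.04, with quartiles of -0.18 and 0.26. Of the 56 pairs 41 (73.2%) lay above 0, beside 54.6% of all pairs. The share above 0 was 17 of 21 in the eye and brain genes, 12 of 15 in the kidney and urogenital genes and 12 of 20 in the heart genes. In the median, 8 of 10 genes were above 0, and 8 of 10 were above the pairs within 5 Mb of them, with NKX2-5 and TBX5 below in each case. The local background was also higher in the knockout in the median. The median log2 ratio of background after the same scaling was 0.19 in the spans and 0.03 over all pairs. Whether background and pileup went together from pair to pair was not tested. The ratio of the authors' fold enrichment, which divides by that background, had a median of -0.01 in the spans and 0.04 over all pairs.

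**Figure D3:**
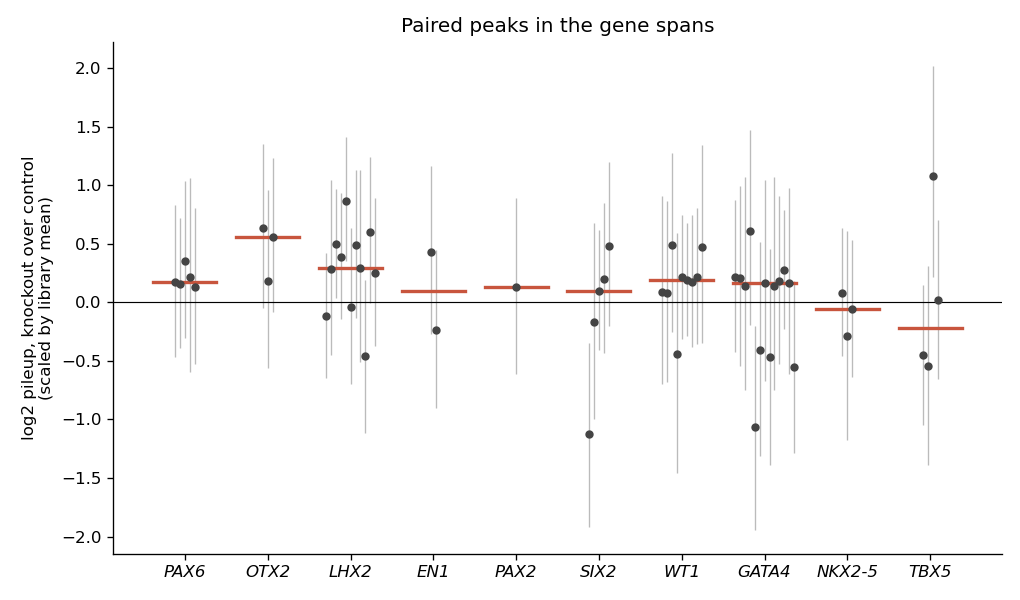
Log2 ratio of pileup, knockout over control, scaled by the library means, for each of the 56 paired peaks (points in genome order within a gene), with 95% intervals for counting error and the median of each gene as a red line. Most points lie a little above 0 with intervals that span it; the lowest point is at SIX2 (-1.12) and the highest at TBX5 (1.08).

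Large differences between paired regions were few. After depth scaling 5 of 56 pairs (8.93%) were over 1.5-fold higher in the knockout and 2 (3.57%) over 1.5-fold lower, beside 5.14% and 3.6% of all pairs. The higher ones were 2 at LHX2 and 1 each at OTX2, GATA4 and TBX5, and the lower ones were at SIX2 and GATA4. The scaled log2 ratio of background ran from 0.02 to 1.12 in the 5 higher pairs and was -0.59 and -0.21 in the lower ones, and its part in these differences was not tested. An interval for counting error clear of 0 was found in 3 pairs with a higher knockout level, 2 at LHX2 and 1 at TBX5, and in 2 with a lower one, at SIX2 and GATA4. In the lists as a whole such pairs made up 2.31% and 0.889%. These intervals hold no variation between cultures or between immunoprecipitations.

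Among the genes of eye and brain, PAX6 had the largest number of knockout-only peaks, 4 of its 9, beside 23.9% of the whole knockout list. PAX6 is the paired-box factor at the head of eye development. Its span on chromosome 11 held 6 control and 9 knockout peaks and was covered at 7.27% and 12.2%. The highest peak in both lists lay at 31834047 to 31834723 in the control, with a pileup of 45 (95% interval 32.8 to 60.2), and at 31833977 to 31834848 in the knockout, with a pileup of 76 (59.9 to 95.1). Relative to the library means these were 15.4 and 17.2, so by pileup this region stood at a like height in both genotypes. By the authors' fold enrichment it was higher in knockout cells, at 10.15 against 4.83. Its local background was lower there, at 1.49 against 2.92 times the library mean. Next to this region, at 31832724 to 31833310, the knockout list had a peak of 72 fragments (56.3 to 90.7). That was 16.3 times its library mean, and the control list had no peak there. Scaled to the depth of the control that pileup would be 47.6, above 94.2% of all control peaks, and the nearest control peak lay 737 bp away. It had the highest pileup of the list-only peaks in the 10 spans. A weaker knockout-only peak at 31804335 to 31804680, at the downstream edge, had a pileup of 25, and its authors' −log10 q of 10.0 was just past the mark for a strong peak. The 5 pairs of matching peaks at PAX6 were all slightly higher in the knockout by scaled pileup, from 0.13 to 0.35 on the log2 scale. Each had an interval that spanned 0, and by fold enrichment not all 5 were higher. No peak of either list lay between 31809136 and 31826078, a stretch of 16.9 kb inside the gene.

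OTX2, a homeobox factor of the forebrain and retina, had 3 peaks in each list on chromosome 14, all shared. The highest lay at 57275230 to 57275794 with a pileup of 30 in control cells and at 57274779 to 57275963 with 67 in knockout cells. The second pair had 25 in control cells and 43 in knockout cells, and the third, at the edge of the span, 26 and 61. All 3 were higher in the knockout relative to the library mean, with log2 ratios of 0.56 (-0.08 to 1.23), 0.18 (-0.56 to 0.96) and 0.63 (-0.05 to 1.35). The intervals spanned 0 in each. The OTX2 median of 0.56 was the highest of the 10 genes, beside 0.06 over 708 pairs within 5 Mb. Cover went from 4.95% in the control to 9.53% in the knockout, and 10.3 kb in the middle of the span held no peak.

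LHX2 is a LIM-homeobox factor needed for the forebrain and the eye field. Its 33 kb on chromosome 9 held 11 peaks in each list, and all 11 formed pairs. The peak with the highest pileup of all 10 spans in the knockout list lay at 126774547 to 126775667, with 126 fragments (105 to 150), 28.5 times the library mean. Its control partner at 126774715 to 126775640 had 59 (44.9 to 76.1), 20.2 times the mean. The log2 ratio was 0.50 (0.04 to 0.97). A neighbouring region differed more. It was a peak of 2830 bp with a pileup of 43 in the control (126777207 to 126780036) and of 4320 bp with 119 in the knockout (126777239 to 126781558), a log2 ratio of 0.87 (0.36 to 1.41). The longer peak was the longest of the 10 spans in either list. Of the 11 pairs at LHX2, 8 were higher in the knockout by scaled pileup and the median was 0.30, against 0.08 over 1625 pairs within 5 Mb. Fold enrichment did not keep the direction in each of these 8. The background of these 2 pairs was higher in the knockout as well, by 0.66 and 0.41 on the log2 scale after depth scaling, and its part in the ratios was not tested. The longest peak-free stretch of LHX2 was only 5.30 kb.

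EN1, the engrailed homeobox factor of the midbrain and limb, had 3 peaks in each list on chromosome 2. The control maximum was at 119602557 to 119603314 with a pileup of 35, where the knockout had 45. The knockout maximum was at 119598887 to 119600200 with 53, where the control had 26. The first pair gave a log2 ratio of -0.24 (-0.90 to 0.45) and the second 0.43 (-0.27 to 1.17), so the EN1 pairs pointed in different directions within counting error. The remaining peak of each list was list-only and weak, with a pileup of 17 in control cells and 18 in knockout cells, and these peaks lay 95 bp apart. From 119603380, inside the gene, to 119659075, beyond the span, neither list held a peak over 55.7 kb on the upstream side of EN1. This was longer than 97.7% of all peak-free stretches of the genome by number, but 46.8% of all peak-free bases lay in stretches of this length or more.

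**Figure D4:**
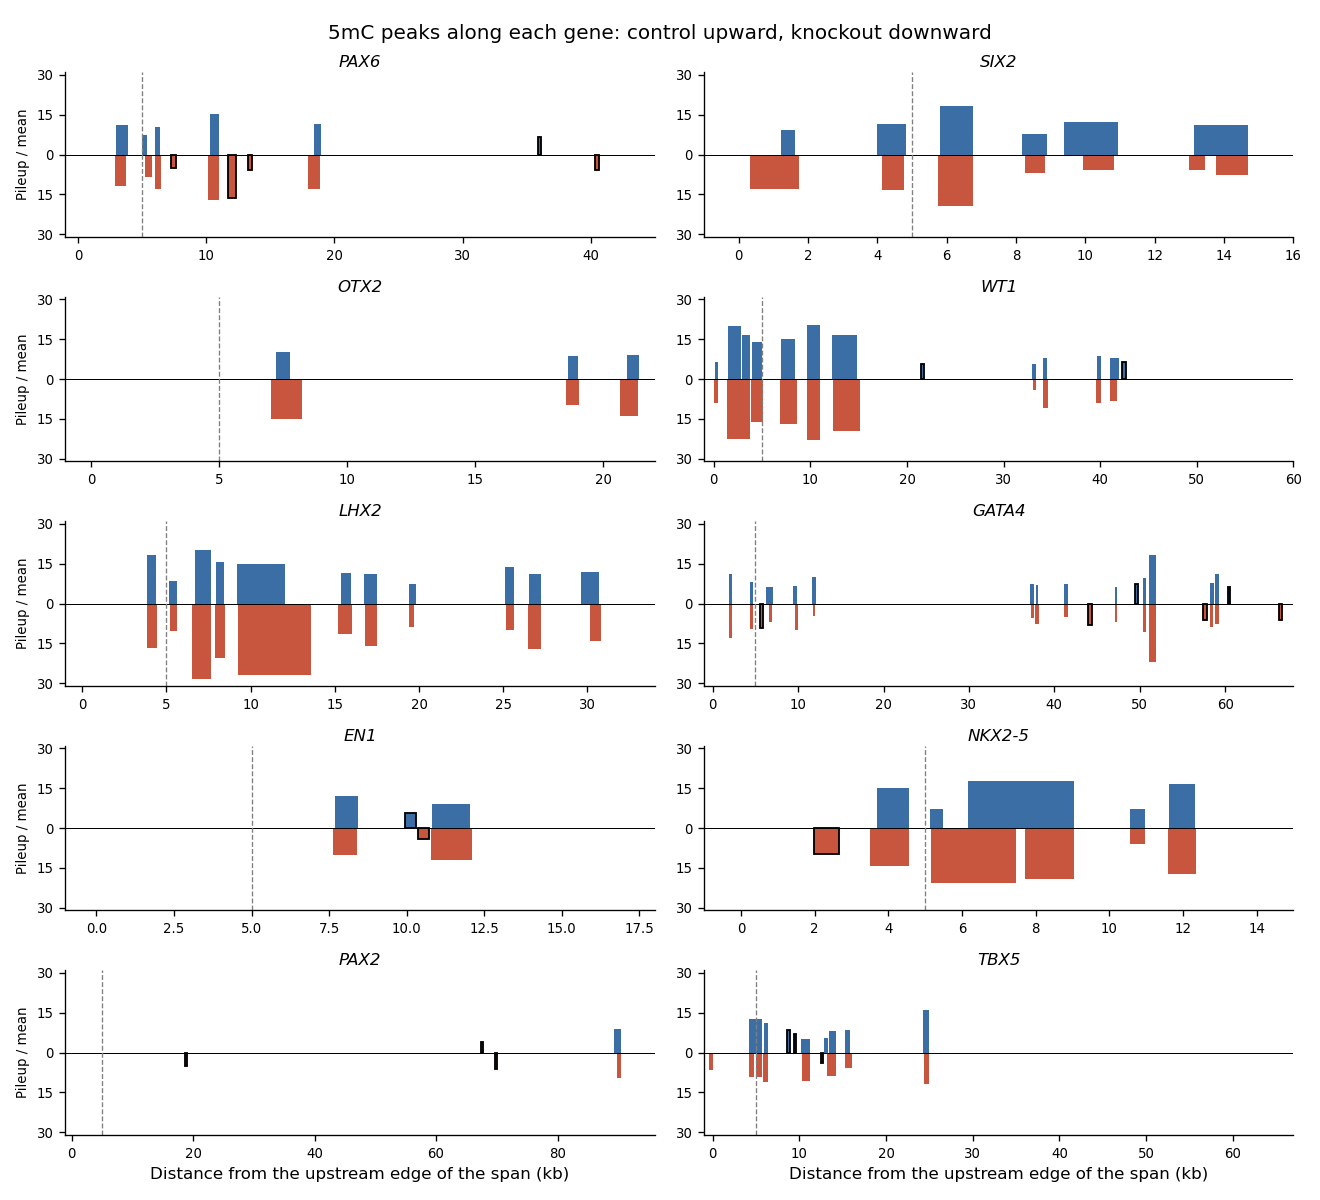
Peaks along each span in the direction of transcription, drawn at their extent in kb from the upstream edge (very short ones are widened to stay visible), with height giving pileup over the library mean; control peaks point up in blue and knockout peaks down in red. Black outlines mark peaks with no overlapping peak in the other list and the dashed line at 5 kb the approximate gene start; most peaks have a partner in the other list, and the tall outlined PAX6 bar is the knockout-only peak with 72 fragments.

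Among the genes of kidney and urogenital tract, PAX2 was nearly free of peaks. PAX2 is a paired-box factor of the early kidney and optic nerve. Its 95 kb on chromosome 10 held 2 control and 3 knockout peaks. Only the pair at the downstream end was shared, at 102589254 to 102590419 with a pileup of 26 in control cells and at 102589812 to 102590508 with 43 in knockout cells, a log2 ratio of 0.13 (-0.61 to 0.89). The knockout-only peak at 102569742 to 102570091 had a pileup of 28 (18.6 to 40.5), the other at 102518731 to 102519053 one of 22, and the control-only peak at 102567468 to 102567767 one of 12. A stretch of 48.4 kb from 102519054 to 102567467 had no peak in either list. It was longer than 97.3% of all peak-free stretches by number, most of which are short (median 1.89 kb), while 49.4% of all peak-free bases lay in stretches at least as long. The lists do not tell unmethylated CpGs in such a stretch from a lack of CpGs.

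SIX2, a homeobox factor that keeps nephron progenitors undifferentiated, was covered over more of its length than any other of the 10 spans in the control list. The highest SIX2 peak lay on chromosome 2 between 45235236 and 45236196 with a pileup of 53 (39.7 to 69.3) in the control and at 45235255 to 45236257 with 86 (68.8 to 106) in the knockout, 18.1 and 19.4 times the library means. By pileup this summit stood at the same height in both genotypes within counting error. Its fold enrichment was higher in knockout cells, at 15.8 against 10.6, over a background of 1.02 against 1.40 times the library mean. A second region, 45231074 to 45232614 in the control, went the other way. It had a pileup of 36 in control cells and 25 in knockout cells, 12.3 against 5.65 times the mean. The background of this pair was lower in the knockout too, by a log2 ratio of -0.59 after scaling, and the authors' fold enrichment was 6.52 in the control list against 4.55. The log2 ratio of -1.12 (-1.92 to -0.35) was the lowest of all 56 pairs in the spans. The pairs within 5 Mb of SIX2 were lower in the knockout in general, with a median of -0.20 over 410 pairs, which leaves this region still below its surroundings. The other 4 SIX2 pairs ran from -0.17 to 0.48. All 6 control and 7 knockout peaks of SIX2 were shared, and its longest peak-free stretch was 2.27 kb.

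WT1, a zinc-finger factor of kidney and gonad, was most densely covered at the upstream end. The 10 kb there were covered at 53.5% in control cells and 62.8% in knockout cells, and the rest of the 59 kb at 12.9% and 11.97%. The highest WT1 peak lay on chromosome 11 between 32452025 and 32453375 with a pileup of 59 in control cells and at 32452040 to 32453406 with 102 in knockout cells, 20.2 and 23.1 times the means. A control pair of peaks, 751 and 1371 bp long with pileups of 49 and 58, corresponded to a single knockout peak of 2399 bp with 100 (32459227 to 32461625). The 9 one-to-one pairs of WT1 had a median log2 ratio of pileup of 0.19, and 8 of them were above 0, none with an interval clear of it. By fold enrichment not all of these 8 were higher in the knockout. The 2 WT1 peaks found in the control list only had pileups of 19 and 17, and the knockout list had no peak of its own here. The downstream end of the span, 32404001 to 32420331, held no peak in either list.

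Among the heart genes, GATA4 had the longest span, 67 kb, and the most peaks. GATA4 is a zinc-finger factor of heart and endoderm. Its span on chromosome 8 held 15 control and 17 knockout peaks. Per 10 kb these were 2.24 and 2.54, fewer than the 3.57 and 4.29 of NKX2-5. List-only were 2 of the 15 and 4 of the 17, beside 12.1% and 23.9% of the whole lists. The GATA4 peaks lay in 2 groups around a peak-free stretch of 25.1 kb. The highest peak was at 11607073 to 11607929 with a pileup of 53 in control cells and at 11607105 to 11607930 with 97 in knockout cells, a log2 ratio of 0.27 (-0.22 to 0.79). Of the 13 GATA4 pairs 9 were higher in the knockout after scaling, with a median of 0.16. The pair at 11567669 to 11568129 in the control was the exception in size, with a pileup of 29 in control cells and 21 in knockout cells and a log2 ratio of -1.06 (-1.95 to -0.20). The 3 strong knockout-only peaks of GATA4 started at 11561533, 11613444 and 11622345 with pileups of 40 (28.6 to 54.5), 28 (18.6 to 40.5) and 27 (17.8 to 39.3). Their nearest control peaks were 425, 336 and 5680 bp away, so the first and second lay beside methylation found in both genotypes.

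NKX2-5, the homeobox factor that marks early heart muscle progenitors, was the most covered of the 10 spans in the knockout list. Its highest control peak, at 172658963 to 172661826 on chromosome 5, was 2864 bp long with a pileup of 52 (38.8 to 68.2). The knockout list held 2 peaks there, of 1329 and 2323 bp, with pileups of 85 and 92 (74.2 to 113). The 3 pairs of NKX2-5 had log2 ratios of 0.08, -0.06 and -0.29, each with an interval that spanned 0. At the upstream side, 172665349 to 172666025, the knockout list had a peak with a pileup of 43 (31.1 to 57.9), 9.72 times the mean, and the control list had none within 1000 bp. Scaled to control depth that pileup would be 28.4, above 64.7% of control peaks.

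TBX5, a T-box factor of heart and forelimb, had 9 peaks in each list on chromosome 12, all within 25 kb of the upstream edge. Downstream of them the span held no peak over 41.1 kb, and the stretch without a peak in either list went on beyond the gene to 114397273, 430 kb in all. Of the peak-free stretches of the genome 99.8% were shorter, and 14.997% of all peak-free bases lay in stretches at least as long. The highest peak was at 114827090 to 114827749 with a pileup of 47 in control cells and at 114827099 to 114827613 with 52 in knockout cells, a log2 ratio of -0.45 (-1.05 to 0.15). The pair at 114840731 to 114841878 differed in the other direction, with a pileup of 15 in control cells and 48 in knockout cells. Its log2 ratio of 1.08 (0.22 to 2.02) was the highest of the 56 pairs, and its control peak was among the weakest of the spans. The median of the 4 TBX5 pairs was -0.22. The control list had 2 peaks here without a partner, with pileups of 20 and 25, and the knockout list 1, with 18.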

How the data were processed

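The authors' deposited tables were 2 peak lists, 1 per immunoprecipitated library. FastQC, BWA, hg19 and MACS2 are named in the submitters' processing notes, and versions and parameters are not given in the sources used here. Per the file headers each peak has a pileup signal at its summit, a fold enrichment ratio, and −log10 p and −log10 q values. The authors' pileup was not scaled between libraries. Lists were matched to samples by genotype and antibody words in their names. Python 3.11.15, numpy 2.4.6, pandas 2.3.3 and scipy 1.17.1 were used.

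The local background was computed as pileup plus 1 over the fold, minus 1. Its lowest value, 2.92 in the control and 4.42 in the knockout, was taken as the library mean and gave the relative depth of 1.51. With it the Poisson tail matched the listed −log10 p within 0.000573. Library totals were not listed, so the depth is known only in this relative form. A control peak and a knockout peak were paired where each touched the other and nothing else. Intervals are at 95%: exact Poisson for pileups, Clopper-Pearson for shares and for ratios of pileups, and order statistics for medians. Those of pileups and their ratios cover counting error of fragments only, among which PCR duplicates may be. Those of shares and medians treat the peaks or pairs of these libraries as independent draws. None holds replicate error. Matching and intervals were tested on simulated, isolated peaks with Poisson counts. That simulation held no split peaks, duplicates or selection by significance, so it checks the computation and not how well the intervals suit these data.

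The members, the gene groups and the rules were chosen with earlier results of these data known. Named regions were, for each gene, the highest peak of each list, strong list-only peaks (−log10 q of at least 10) and the longest peak-free stretch, with the lowest and highest pair of all; other regions were named after their values were seen. Alternatives were a stricter −log10 q or fold, trimmed spans, other rules of overlap and pairing, equal list lengths, other scalings and leaving out SIX2 and EN1. No annotation of hg19 was used here, so exons, introns, exact gene starts and a further list of developmental and Polycomb genes were not analysed. The promoter table was used for sequence only. LHX2 and SIX2 were chosen for printing after their cover was seen.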

Additional observations from a re-analysis of the deposited data

How the results depend on the processing

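Counts and lengths were held to 1.5 times their value and the median log2 ratio to its interval. The 8 results were recomputed under 58 alternatives, of which 44 kept to this, 13 moved further and 1 turned the sign. With −log10 q of at least 10 in both lists, the control peaks in the spans numbered 45 and the control-only peaks 4. The knockout-only peaks numbered 15 under this setting, which stayed within the limit. Keeping only peaks enriched at least 5 times left 43 control and 40 knockout peaks in the spans. With equal numbers of peaks in each list, control-only peaks numbered 15. With 50% reciprocal overlap 18 control and 22 knockout peaks lacked a partner, and when a partner within 1000 bp also counted they numbered 5 and 7. Strong list-only peaks numbered 0 and 7. Apart from these strong peaks, shares of the whole lists were not computed for the list-only counts of this section. The upstream 10 kb of the spans, added after the data were seen, were covered at 23.7% (control) and 26.8% (knockout). The 1 that turned was the median log2 ratio of the pairs with fold enrichment in place of pileup, at -0.011. Stricter thresholds and overlap rules change these counts by construction. The fold ratio divides by the local background of each library where the pileup ratio was scaled by the library means. In its other 7 alternatives the median stayed within 0.13 to 0.21. No paired analysis was possible because there was a single library of each kind and genotype.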
